A study of Mus musculus with 6 samples.

Results

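Border macrophages are the resident macrophages of the meninges, the perivascular spaces and the choroid plexus, and 7 genes that mark them were followed here from hippocampal Input RNA into the Positive fraction of a translating ribosome affinity purification (TRAP). The genes were Mrc1, Cd163, F13a1, Stab1, Lyve1, Pf4 and Ms4a7, chosen by name as known markers, and all 7 were found among the 15388 genes of the deposited table. Each is a protein-coding gene, and each had 1 row in the table. The mice carried Cx3cr1-cre/ERT2 and NuTRAP, a reporter that after recombination puts an EGFP-tagged ribosomal protein on ribosomes. They were about 3 months old and were induced with tamoxifen (Tam) at 100 mg/kg on 5 days, with tissue taken 3 to 4 weeks later per the methods for this line. Animals 201, 207 and 208 each gave 1 Input library, from the cleared homogenate, and 1 Positive library, from the anti-GFP beads, so both fractions share genotype and treatment. The Cx3cr1 driver is active in microglia, in border macrophages and in circulating monocytes. Monocytes are short-lived, and the wait after Tam was meant to let labelled ones be replaced. A Positive library holds messenger RNA recovered with tagged ribosomes, summed over the recombined cells still present. It also held RNA of other cells. Cell-sorting gene lists had median log2 fold changes between Positive and Input of -0.01 for neurons, -0.42 for astrocytes and -0.78 for oligodendrocytes. The scaling holds the typical gene near 0 (-0.01 for all genes tested), so these values do not measure the amount of such RNA. No Cre-negative library was analysed here.

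Border macrophages descend from myeloid precursors, carry Cx3cr1 like microglia, and sit outside the brain parenchyma along blood vessels and membranes. They are known for scavenging: they take up glycoproteins, modified lipids, hyaluronan and haemoglobin complexes from the fluid around vessels. In the healthy brain most of these markers are low in parenchymal microglia, which is why they are used to tell the cells apart. The 7 genes were set beside a second list of 24 genes of the same cells and beside markers of microglia and other cells. These lists are given after the 7 genes, with their limits.

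The transcription factors PU.1 and MAF act in macrophages, so the 250 bases before the start of the genes were read for the PU.1 core GAGGAA and the MAF site TGCTGA on both strands. Promoters were found in RefSeq (GRCm38.p6) for 6 of the 7 genes, in 8 windows. The windows with a match are shown 5′ to 3′ along the gene's own strand, with matches in capitals (TTCCTC is GAGGAA read on the opposite strand). They lie at chr2:14229164-14229413 on the plus strand for Mrc1, chr13:37050245-37050494 on the minus strand for F13a1, chr14:31168642-31168891 on the minus strand for Stab1 and chr5:90772185-90772434 on the plus strand for Pf4.
Mrc1: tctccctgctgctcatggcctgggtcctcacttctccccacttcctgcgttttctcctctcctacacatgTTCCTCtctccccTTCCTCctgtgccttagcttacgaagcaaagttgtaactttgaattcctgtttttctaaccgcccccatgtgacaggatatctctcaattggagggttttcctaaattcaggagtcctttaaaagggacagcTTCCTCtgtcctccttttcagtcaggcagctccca
F13a1: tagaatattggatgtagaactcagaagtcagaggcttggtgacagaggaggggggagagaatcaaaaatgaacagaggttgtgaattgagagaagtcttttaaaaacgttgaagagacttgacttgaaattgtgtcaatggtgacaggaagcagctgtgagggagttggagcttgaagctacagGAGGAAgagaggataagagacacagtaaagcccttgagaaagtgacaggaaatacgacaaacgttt
Stab1: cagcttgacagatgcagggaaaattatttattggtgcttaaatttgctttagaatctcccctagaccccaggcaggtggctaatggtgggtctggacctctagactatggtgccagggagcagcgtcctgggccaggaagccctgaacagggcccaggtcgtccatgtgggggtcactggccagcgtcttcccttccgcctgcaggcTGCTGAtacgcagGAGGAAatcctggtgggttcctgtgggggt
Pf4: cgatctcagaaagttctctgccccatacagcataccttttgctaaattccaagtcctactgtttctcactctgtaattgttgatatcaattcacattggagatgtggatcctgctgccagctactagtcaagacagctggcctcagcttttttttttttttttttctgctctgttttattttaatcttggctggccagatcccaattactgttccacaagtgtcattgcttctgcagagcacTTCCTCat
Mrc1 held the PU.1 core 3 times, beginning 180, 167 and 35 bases before the start. F13a1 held it once in 1 of its 2 windows, 66 bases before the start, and Pf4 once, 8 bases before. Stab1 held both motifs, the MAF site at 43 and the PU.1 core at 30 bases before the start, without overlap. No match was found in the windows of Cd163 and Ms4a7. Of 32851 promoters of the same length, 23.3% held the PU.1 core and 16.1% the MAF site, and of 241 promoters of genes on a microglia list 36.5% and 17.4% did. A match is a description of letters and no measure of binding.

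The values below are scaled reads, the reads of a gene divided by the size factor of its library, and fold changes are Positive over Input. Libraries held 14879734 to 17757918 reads in the table. Reads carried no molecular identifiers, so errors from read numbers cover counting only. All 7 genes were higher in Positive than in Input (edgeR quasi-likelihood test, adjusted over 15343 genes), against 24% of all genes tested. All 7 were over 5-fold higher, against 3.75% of all genes, and in all 7 every Positive library was above every Input library, against 28.9%. Lyve1, Pf4 and Ms4a7 had fewer than 20 scaled reads in at least 1 Input library. They entered the test only because Positive was high, so for them a difference was built into the filter and these counts give no support. The other 4, Mrc1, Cd163, F13a1 and Stab1, passed the filter in Input too, where 22.1% of genes were higher in Positive. In bulk RNA, more cells of a type and more RNA per cell cannot be told apart.

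**Figure D1:**
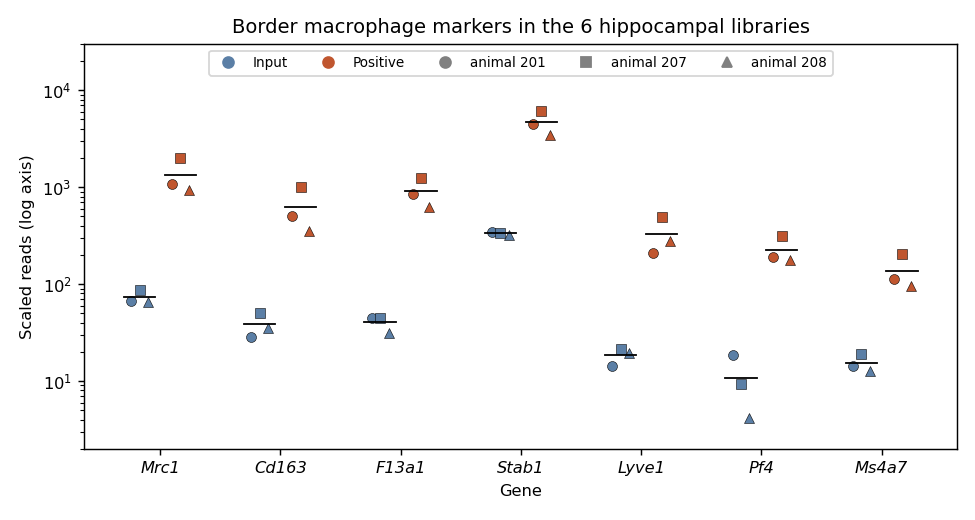
Scaled reads (log axis) of the 7 border macrophage markers in the 3 Input (blue) and 3 Positive (orange) libraries, with a shape for each animal and a bar at the mean of each fraction. All Positive points lie above the Input points of the same gene, and the square of animal 207 is the highest Positive point in 7 of 7 genes.

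The 4 scavenger receptors come first. Mrc1 encodes the mannose receptor CD206, which takes up glycoproteins ending in mannose, and lies at chr2:14229392-14332057 on the plus strand (mm10). It had 66.3, 87.0 and 65.0 scaled reads in Input of animals 201, 207 and 208, and 1070.0, 2001 and 929.8 in Positive. The Positive library of animal 207 was about double either of the others, while the Input libraries lay close together. The log2 fold change was 4.19 ± 0.28 (SE), or 18.2-fold, with an edgeR adjusted p of 7.63e-08. The microRNA gene Mir511 lies within Mrc1 and was not separated from it here.

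Cd163 encodes the receptor for haemoglobin bound to haptoglobin and lies at chr6:124304656-124330527 on the plus strand. Its Input values were 28.6, 50.7 and 35.7 scaled reads in animals 201, 207 and 208, and its Positive values were 499, 1012 and 350.1. Animal 207 was highest in both fractions, and the fractions stayed apart. Its log2 fold change was 4.01 ± 0.37 (SE), or 16.1-fold (edgeR adjusted p = 2e-06).

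Stab1 encodes stabilin-1, a scavenger receptor for modified lipoproteins and extracellular proteins that is also made by some endothelial cells. It lies at chr14:31139013-31168641 on the minus strand, where the end of the gene overlaps Nt5dc2 on the opposite strand, and the authors' counting used strand. Scaled reads were 346, 333 and 325 in Input and 4506, 6071 and 3419 in Positive of animals 201, 207 and 208. The Input libraries were nearly level, and animal 207 again had the most in Positive. The log2 fold change was 3.80 ± 0.18 (SE), or 13.9-fold (edgeR adjusted p = 2.42e-09), with the smallest error of the 7 genes.

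Lyve1 encodes a hyaluronan receptor shared by lymphatic endothelium and perivascular macrophages and lies at chr7:110850607-110863239 on the minus strand. Input held 14.3, 21.6 and 19.3 scaled reads and Positive 211, 489 and 279 in animals 201, 207 and 208. Animal 207 was highest in both fractions, and animal 201 lowest in both. Enrichment on the log2 scale was 4.15 ± 0.33 (SE), or 17.7-fold (edgeR adjusted p = 4.56e-07).

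The secreted proteins follow. F13a1 encodes the A subunit of coagulation factor XIII, a transglutaminase that crosslinks fibrin and is made by macrophages and megakaryocytes. It lies at chr13:36867178-37050244 on the minus strand and overlaps the antisense genes Gm49144 and Gm30489. It had 44.9, 45.1 and 31.5 scaled reads in Input and 853, 1251 and 619 in Positive of animals 201, 207 and 208. Animal 208 was lowest in both fractions. It rose by 4.48 ± 0.26 (SE) on the log2 scale, or 22.3-fold, the largest of the 7 genes (edgeR adjusted p = 2.11e-08), though its error overlapped those of Pf4, Mrc1, Lyve1 and Cd163.

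Pf4 encodes platelet factor 4 (CXCL4), a chemokine stored in platelets and also made by border macrophages, and lies at chr5:90772435-90773383 on the plus strand. It had 18.4, 9.40 and 4.20 scaled reads in Input, from 18, 10 and 4 reads, and 193, 314 and 176 in Positive of animals 201, 207 and 208. Animal 201 was highest in Input and animal 208 lowest, and the fractions did not overlap. Pf4 rose by a log2 fold change of 4.40 ± 0.37 (SE), or 21.1-fold (edgeR adjusted p = 6.98e-07). Its log2 ratio was 3.32 in animal 201, 4.92 in animal 207 and 5.09 in animal 208, the widest spread between animals of the 7 genes (SD 0.97).

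Ms4a7 encodes a membrane-spanning protein of the MS4A family, known as a marker of border macrophages over microglia, and lies at chr19:11321039-11336146 on the minus strand. Scaled reads were 14.3, 18.8 and 12.6 in Input and 112, 204 and 95.5 in Positive of animals 201, 207 and 208. Animal 207 was highest in both fractions. Its log2 fold change of 3.16 ± 0.34 (SE), or 8.93-fold, was the smallest of the 7 genes (edgeR adjusted p = 7.37e-06).

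To compare levels between genes, scaled reads were divided by exon length in kb. This length joins all annotated exons of a gene and can exceed that of its transcripts, so the order between genes may depend on it. In Positive, Stab1 had the highest mean (453 ± 130 scaled reads per kb, SD, n = 3), then Pf4 (315 ± 105), Mrc1 (209 ± 91.4), F13a1 (135 ± 47.4), Cd163 (114 ± 63.6), Lyve1 (112 ± 49.5) and Ms4a7 (30.8 ± 13.1). Within each animal Stab1 was above Pf4, Pf4 above Mrc1 and Mrc1 above F13a1, but over the 3 libraries the ranges of these neighbours overlapped, and Cd163 and Lyve1 changed places between animals. Ms4a7 was below every library of Lyve1, its neighbour. In Input the levels per kb ran from 32.5 ± 1.04 for Stab1 to 3.42 ± 0.72 for Ms4a7, and Pf4 had the widest range, 5.82 to 25.5.

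Set against the median of 10 microglial core genes (Cx3cr1, Tmem119, Fcrls and others) in the same library, Stab1 stood at 48.4% to 52.3% per kb in Input and at 24.1% to 29.7% in Positive. Mrc1 stood at 15.4% to 20.4% in Input and 10.4% to 15.8% in Positive, and Ms4a7 at 4.69% to 6.32% and 1.55% to 2.31%. In 6 of the 7 genes this share was lower in Positive than in Input in all 3 animals. Pf4 was the exception, with 16.5%, 22.0% and 17.7% in Positive of animals 201, 207 and 208 against 37.7%, 19.5% and 9.65% in Input. The core genes rose by a median of 4.73 on the log2 scale, against 3.65 for a microglia list and -0.01 for all genes tested. Any gene that rose less than the core genes falls in this share, so a lower share is not particular to the 7 genes.

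The next question was how the enrichment compared with that of microglia. The cell-sorting list of microglia from the study's supplement, with 238 genes tested, had a median log2 fold change of 3.65, and all genes tested had -0.01. The list itself holds Mrc1 and Stab1. A ribosomal-tagging list of microglia from the same supplement, with 134 genes tested, had a median of 4.17, and 55.2% of it was called above the reference described next. It holds F13a1, Stab1 and Pf4, and the study chose it in part on its own brain libraries of this line. Of the 238 cell-sorting genes, 46 had a larger fold change than F13a1, 78 than Mrc1, 109 than Stab1 and 151 than Ms4a7, so the 7 genes lay within the range of that list.

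The whole table was then refitted with size factors from the list without the 7 genes (236 genes), so that a value of 0 is the typical fold of these microglial genes. F13a1 was 0.84 ± 0.25 (SE) above it on the log2 scale (edgeR adjusted p = 0.000821), Pf4 0.79 ± 0.35 (adjusted p = 0.0258) and Mrc1 0.53 ± 0.23 (adjusted p = 0.0215). These 3 of 7 compare with 37.4% of the cell-sorting list itself and 1.02% of all genes called above, and 0 of 7 were called below (edgeR), where 97.3% of all genes were. Pf4, Lyve1 and Ms4a7 entered this test too only because Positive was high. Of the 4 genes that passed in Input, Mrc1 and F13a1 were above. The count below was also 0 at an unadjusted p under 0.05 and 0 in DESeq2. Because 97.3% of all genes were called below, the adjustment changed p little, so these values are close to unadjusted ones. The SE takes the reference as fixed. Lyve1 (0.51 ± 0.31), Cd163 (0.33 ± 0.26), Stab1 (0.17 ± 0.21) and Ms4a7 (-0.48 ± 0.34) did not pass the test.

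The reference decided the sign. With the 10 core genes as reference, whose median log2 fold change was 4.73, 6 of the 7 genes changed sign, 0 were above and 4 were below. The values were then -0.52 for Mrc1 (edgeR adjusted p = 0.0214), -0.72 for Cd163 (adjusted p = 0.00508), -0.89 for Stab1 (adjusted p = 6.41e-06) and -1.54 for Ms4a7 (adjusted p = 9.87e-06). F13a1 was then at -0.21 (adjusted p = 0.393), Pf4 at -0.27 (adjusted p = 0.455) and Lyve1 at -0.54 (adjusted p = 0.0854). The call of Mrc1 above the cell-sorting list was lost without the Input library of animal 201 (0.43, edgeR adjusted p = 0.123), the Input library of animal 208 (0.50, adjusted p = 0.0632) or the Positive library of animal 207 (0.33, adjusted p = 0.1). The call of Pf4 was lost without the Input libraries of animals 207 (0.67, adjusted p = 0.106) or 208 (0.45, adjusted p = 0.241), without the Positive library of animal 207 (0.67, adjusted p = 0.0721) and in DESeq2 (0.79, adjusted p = 0.083). Without the Input library of animal 201 Pf4 was at 1.37 (adjusted p = 0.00284). Lyve1 passed without the Positive library of animal 201 (0.73, edgeR adjusted p = 0.0239). F13a1 kept its call whichever library was left out. Over the 12 alternatives the adjusted p ran from 0.0002 to 0.393 for F13a1, from 0.00973 to 0.123 for Mrc1, from 0.00284 to 0.455 for Pf4 and from 0.0239 to 0.357 for Lyve1. It ran from 0.00508 to 0.973 for Cd163, from 6.41e-06 to 0.631 for Stab1 and, over the 11 that tested it, from 9.87e-06 to 0.439 for Ms4a7.

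**Figure D2:**
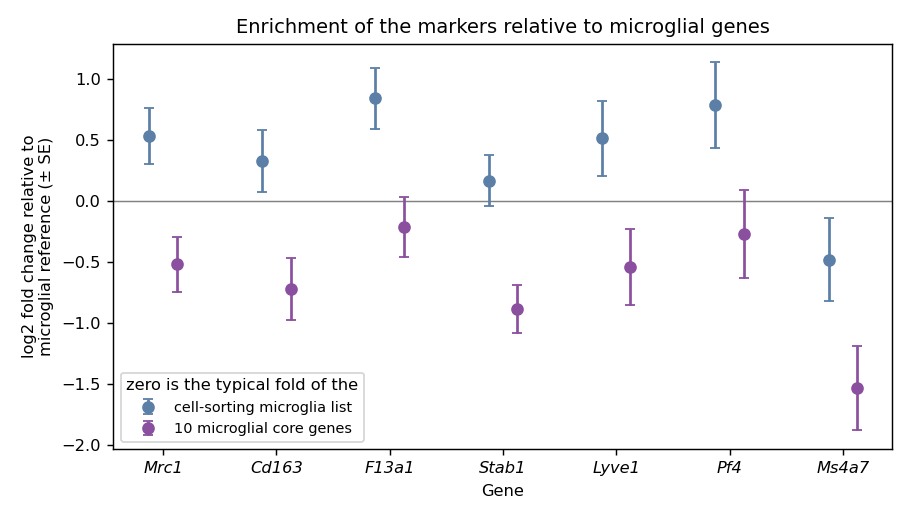
Log2 fold change (Positive over Input) of each of the 7 genes relative to the typical fold of the cell-sorting microglia list (blue) and of 10 microglial core genes (purple), with bars of 1 SE. With the first reference 6 genes lie above 0 and with the second all 7 lie below, from -0.21 for F13a1 to -1.54 for Ms4a7.

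The second list held 24 genes of border macrophages outside the 7, and all 24 were tested. Of these, 22 were higher in Positive, 0 were lower (edgeR, and 0 also at an unadjusted p under 0.05 and in DESeq2) and 2 did not pass the test, with a median log2 fold change of 3.59. In 17 of the 24, at least 1 Input library was at or under 20 scaled reads, so they too passed the filter only through Positive, and the count and median over the 24 give no support. Of the 7 that passed in Input, 5 were higher, with a median of 1.99 over the 7. Among these 5 were Cbr2, Hpgd and Maf, which are also on the cell-sorting microglia list. Folr2, a folate receptor of perivascular macrophages, had 12.2, 19.7 and 10.5 scaled reads in Input and 181, 354 and 109.6 in Positive of animals 201, 207 and 208. Its log2 fold change was 3.90 ± 0.43 (SE), and animal 207 was again highest. Hpgd, which degrades prostaglandins, went from 69.4 ± 11.2 scaled reads (SD, n = 3) to 1494 ± 286, a log2 fold change of 4.43 ± 0.16 (SE). The C-type lectin Cd209f rose by 4.17 and Cbr2, a carbonyl reductase, by 3.76 on the log2 scale.

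The chemokines Ccl8 and Ccl24 were nearly missing from Input. Ccl8 had 0, 2 and 0 reads there and 46, 72 and 30 in Positive of animals 201, 207 and 208, at least 16.1-fold higher against a floor of 3 reads per library. Ccl24 had at most 2.89 reads in Input and was at least 27.9-fold higher. With these 2 genes at their bounds the median of the list was also 3.59. Against the microglial reference, Ccl8, Ccl24, Clec4n and Hpgd were called above and 7 genes below (edgeR; 2 above and 6 below in DESeq2, where Ccl24 with adjusted p = 0.058, Clec4n with 0.0861 and Clec10a with 0.0952 lost their calls). Ccl8, Ccl24 and Clec4n entered the test only through Positive. Hpgd, Maf and Cbr2 are themselves part of the reference they were compared with. The genes below included Maf (-1.38) and Dab2 (-1.64). Maf, a transcription factor of resident macrophages, had a log2 fold change of 2.24 ± 0.13 (SE) and Dab2, an endocytic adaptor, 1.99 ± 0.18. The 2 genes that did not pass against Input were Cd38 (-0.28, edgeR adjusted p = 0.264) and the scavenger receptor Colec12 (-0.16, adjusted p = 0.641).

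**Figure D3:**
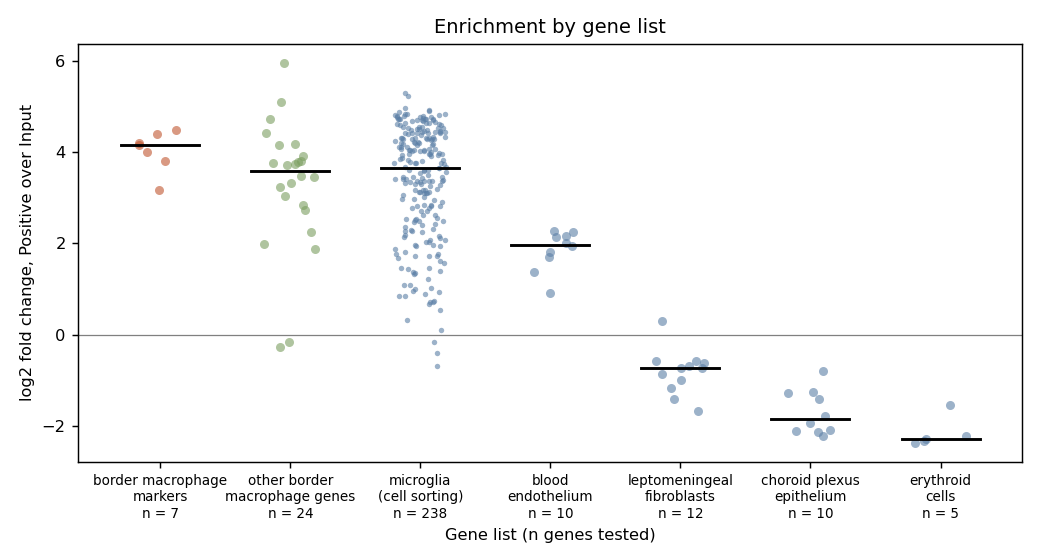
Log2 fold change (Positive over Input) of each gene tested in 7 gene lists, 1 point per gene, with a black bar at the median of the list. The medians of the border macrophage markers (4.15), the other border macrophage genes (3.59), the microglia list (3.65) and blood endothelium (1.97) lie above 0. The markers Lyve1, Pf4 and Ms4a7 were tested only through Positive (median 4.10 for the other 4). So were 17 of the 24 other border macrophage genes (median 1.99 for the other 7). Leptomeningeal fibroblasts (-0.73), choroid plexus epithelium (-1.85) and erythroid genes (-2.28) lie below 0.

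Relatives of the 7 genes followed. Of 22 paralogs listed, 8 were tested, 6 were higher and 0 lower in Positive (edgeR, and 0 also at an unadjusted p under 0.05 and in DESeq2). Of the 8, Ms4a6b and Ms4a6c are also among the 24 genes above. Only 4 of the 8 passed the filter in Input, of which Tgm2 and Mrc2 were higher, and the 4 MS4A genes were tested only because Positive was high. The MS4A family members Ms4a6d and Ms4a6c had log2 fold changes of 4.61 ± 0.34 and 3.81 ± 0.29 (SE). Tgm2, a transglutaminase related to F13a1, rose by 2.80 ± 0.17, and Mrc2, the relative of Mrc1 found on fibroblasts, by 0.87 ± 0.15. The 2 that did not pass were Cd44 (-0.33), a hyaluronan receptor like Lyve1, and Cd163l1 (-0.85), both named after their values were seen.

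Cd163 acts upstream of haem breakdown and iron storage. Of 9 genes of haemoglobin and iron handling, 8 were tested, 6 were higher and 2 lower, with a median of 0.92. Slc11a1, the phagosomal iron transporter, rose by 4.07 ± 0.24 (SE) on the log2 scale, and it is also on the cell-sorting microglia list. The ferritin chains Fth1 and Ftl1 were the 2 that fell, by 1.71 and 0.72. Lrp1, the receptor for haem bound to hemopexin, rose by 0.25 ± 0.09 (edgeR adjusted p = 0.038), a call that was lost when any of 5 of the 6 libraries was left out.

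Some of the markers have other known sources, and these were read from their own lists. For Pf4 and F13a1 these are platelets: 4 of 10 platelet genes were tested, with Gp9 5.25 ± 0.39 and Itgb3 2.86 ± 0.21 higher in Positive, Gp1bb -0.57 ± 0.18 lower and Itga2b -0.13 ± 0.29 not past the test (log2 fold change, SE). Gp9 had 2, 6 and 2 reads in Input of animals 201, 207 and 208 and entered the test only because Positive was high. The summed level of the 4 was 239.6 to 302 scaled reads in Input and 559 to 800.5 in Positive. The call of Gp1bb was lost without the Input libraries of animals 207 (-0.57) or 208 (-0.50) or the Positive library of animal 207 (-0.41). The other 6 platelet genes had no test, as they were absent by name from the deposited table or under the read filter.

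For Stab1 and Lyve1 another source is endothelium, and Mrc1 and Stab1 are also on the cell-sorting microglia list. All 10 genes of blood endothelium were higher in Positive, with a median of 1.97, and their sum was 1739.7 to 2179 scaled reads in Input and 4999.5 to 9721 in Positive. In Positive it was highest in animal 201, not 207. Of 5 genes of lymphatic endothelium 4 were tested, 2 were higher (Flt4 1.48, Prox1 0.35) and 2 lower (Pdpn -0.96, Ccl21a -0.87). Their sum was 1445 to 1709 scaled reads in Input and 1731 to 2280 in Positive, most of it Prox1, which is also made by granule neurons of the hippocampus. The call of Prox1 was lost under total count scaling (0.27) and without the Input libraries of animals 201 (0.29) or 207 (0.35) or the Positive library of animal 208 (0.17). That of Ccl21a was lost without the Input libraries of animals 207 (-0.68) or 208 (-0.85) or the Positive library of animal 207 (-0.69).

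Of 10 monocyte genes, 4 were tested, 2 were higher (Ly6c2 1.61, Spn 1.57) and 1 lower (Ace -0.93), with sums of 2125 to 2720 scaled reads in Input and 1427 to 2126 in Positive. Ly6c2 and Spn entered the test only through Positive. Nr4a1 and Ace, which other brain cells also make, held 95.4% to 99.3% of the sum in each library. Of 8 neutrophil genes only Cxcr2 was tested, and it was lower (-1.41), with 35.3 to 56.0 scaled reads in Input and 9.80 to 23.5 in Positive. Of 10 mural cell genes 1 was higher (Myh11 1.14, named after its value was seen) and 1 lower (Cspg4 -1.08), with sums of 3336 to 3466 in Input and 2185 to 4329 in Positive. With single libraries left out, 0 to 4 mural genes were higher (edgeR), 0 without the Input library of animal 201 or the Positive library of animal 207 and 4 without the Positive library of animal 208. The count of lower genes was 1 to 3, with 3 without the Positive library of animal 201 and 2 without that of animal 207.

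The tissue around border macrophages was also present. Choroid plexus epithelium was lower in Positive in 10 of 10 genes, with a median of -1.85, and Ttr, its most abundant transcript, fell by 2.21 on the log2 scale. The sum of the 10 was 29351 to 39608 scaled reads in Input and 7577 to 9220 in Positive. Leptomeningeal fibroblasts were lower in 9 of 12 genes and higher in 0 (edgeR, and 0 also at an unadjusted p under 0.05 and in DESeq2), with sums of 5494 to 6150 in Input and 2256 to 3370 in Positive. The part of these cells, of microglia and of the platelet and endothelial genes in the values of the 7 genes was not tested.

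The Positive library of animal 207 stood apart for the 7 genes. It was the highest of the 3 in 7 of 7, against 36.5% of all genes tested and 95.4% of the microglia list. The difference was in size: on the log2 scale it exceeded the mean of animals 201 and 208 by a median of 0.97 for the 7 genes, by 0.79 for the 24 other border macrophage genes, and by 0.41 for the microglia list, 0.42 for the microglial core genes and 0.04 for all genes. The excess ran from 0.63 for Stab1 to 1.27 for Cd163. All 7 genes and all 24 others lay above the median of the microglia list, but Cd38 (0.44), Hpgd (0.45) and Maf (0.49) were close to it. Of the 24, Hpgd, Maf and Cbr2 are on that list. The share of all genes above this median was not counted, and the lists were chosen with earlier results known. The count thus gives no support. The choice of this library followed from its values, and with 1 library there is no test.

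The summed level of the 7 genes was 7443, 11341 and 5868 scaled reads in Positive of animals 201, 207 and 208, and 533, 565 and 493 in Input. Stab1, which is on both microglia lists, made up most of each sum: 4506, 6071 and 3419 in Positive and 346, 333 and 325 in Input. The summed Input level was also highest in animal 207, with a median excess over the 7 genes of 0.36 against 0.01 for the microglia list. The log2 ratio of Positive over Input was largest in animal 207 in 6 of the 7 genes. Its median over the genes was 3.80, 4.44 and 3.79 in animals 201, 207 and 208. The median was also largest in animal 207 for the microglia list (3.56, 3.89 and 3.37) and the core genes (4.57, 4.89 and 4.38). A largest ratio in animal 207 is thus not particular to the 7 genes.

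Other markers moved with this library. The 5 erythroid genes tested were all lower in Positive than in Input, but they too were high in animal 207, with sums of 668, 1441 and 686 scaled reads in Positive of animals 201, 207 and 208. In Input the sums were 4190.5, 5531 and 3741. Their median excess in the Positive library of animal 207 was 1.13, and in Input 0.45. For leptomeningeal fibroblasts the excess in Positive was 0.46, for mural cells 0.22, for blood endothelium 0.11 and for choroid plexus epithelium -0.07. Single genes of these lists, named after their values were seen, had an excess as large as the 7 markers: the smooth muscle genes Myh11 (1.31), Acta2 (1.01) and Tagln (0.93) and the collagen gene Col3a1 (1.19). Their part in the high values of animal 207 was not tested. Without this library the log2 fold changes of the 7 genes were lower, from 2.75 for Ms4a7 to 4.18 for F13a1, and all 7 stayed past the threshold (edgeR).

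**Figure D4:**
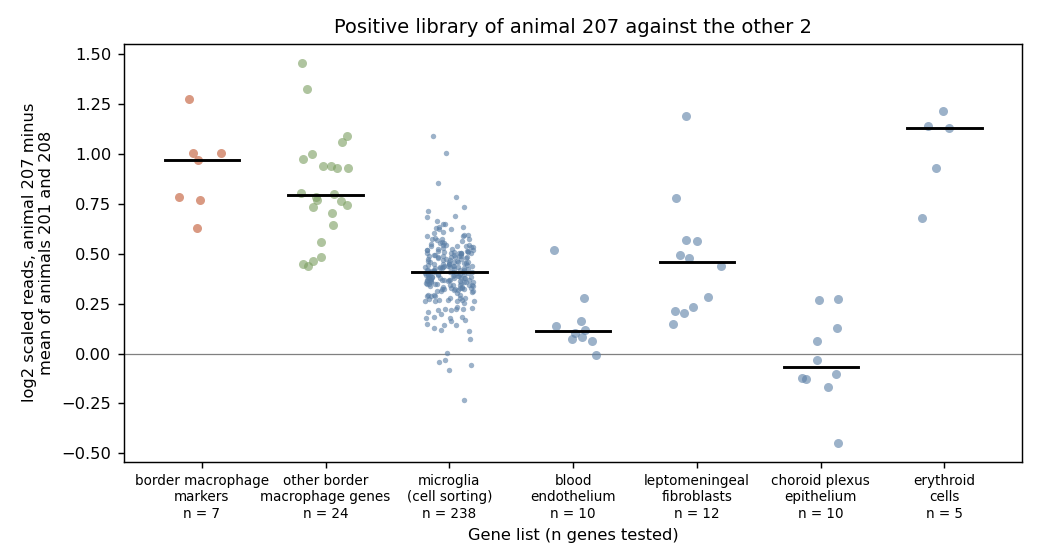
Log2 scaled reads in the Positive library of animal 207 minus the mean of the Positive libraries of animals 201 and 208, 1 point per gene in 7 gene lists, with a black bar at the median. The medians of the 7 markers (0.97) and the other border macrophage genes (0.79) lie above that of the microglia list (0.41). The erythroid genes have the highest median of the lists drawn (1.13, n = 5).

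Genes with the most similar pattern were found by the root mean square (rms) difference over the 6 libraries of log2(scaled reads + 1), each gene centred on its own mean, among 15215 genes. The closest to Cd163 was Folr2 (rms 0.18), followed by Mrc1 (0.21) and Ms4a6b (0.22). The closest to Mrc1 was Nlrp3 (0.11), to F13a1 Tlr7 (0.07), to Stab1 Bmf (0.08), to Lyve1 Cmklr1 (0.21), to Pf4 Arl11 (0.11) and to Ms4a7 Pros1 (0.19). Mrc1 was also second for Lyve1 (0.22). Over 6 libraries this likeness rests mostly on the step between fractions, and many genes share it.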

How the data were processed

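RNA was measured in Input and Positive TRAP libraries of 3 animals, grouped by the fraction label. Libraries were directional and poly(A)-selected, sequenced as pairs of 50 bases. The authors trimmed adapters, 2 bases at the 5′ and 6 at the 3′ end, aligned to mm10 with strand in Strand NGS, and assigned reads to Ensembl genes. Raw columns of the deposited table are expected counts (estimated counts), of which 18.5% to 25.0% per library were whole (within 0.001). Of whole values under 60 reads, 66.2% were even. How mates of a pair were counted is not given in the sources used here, and if both were counted the independent fragments would be fewer. The authors kept genes with at least 20 reads in every library of 1 fraction. The deposited normalized columns are log2 values scaled by DESeq, minus the gene's Input median, and were not used for tests. Per-sample columns left unmapped numbered 0.

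Expected counts were rounded and tested in R 4.3.3 with edgeR 4.0.16 (glmQLFit, glmQLFTest, RLE scaling), unpaired as in the study's methods, on 15343 genes with over 20 scaled reads in all 3 libraries of Input, of Positive or of both. The filter removed 45 genes. P-values were adjusted by Benjamini-Hochberg with a threshold of 0.05. The SE of a log2 fold change came from the F statistic. Log2 ratios per animal used a pseudocount of 1. Exon lengths came from GENCODE M21. The procedure was tested on simulated data. No 2 libraries of a fraction held identical values or agreed within counting noise. Animals pair the fractions: the correlations of deviations were 0.19, 0.06 and 0.12 in animals 201, 207 and 208. Between Input and Positive of different animals they ran from -0.14 to 0.03. Alternatives were TMM, total count scaling, DESeq2 1.42.0, other filters, the animal as block, reads halved, each library left out and another microglial reference.

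All 7 genes and every other border macrophage gene could be named, of other lists the 4 tested genes with the highest mean, and the 3 genes most like each of the 7. Others were named after their values were seen. The 7 genes and the hand-written lists were chosen with earlier results of these data known.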

Additional observations from a re-analysis of the deposited data

How the results depend on the processing

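The 7 genes were higher in Positive under each alternative run, with 6 of 6 at a mean of at least 100 scaled reads, where Ms4a7 was not tested. That filter left 13 of the 24 other border macrophage genes, and 11 were higher. Their count was 22 in each other alternative. With core genes as the microglial reference, 0 of the 7 genes were above and 4 below. Mrc1 was then at -0.52, Cd163 at -0.72, F13a1 at -0.21, Stab1 at -0.89, Lyve1 at -0.54 and Pf4 at -0.27. Leaving out single libraries gave 1 to 4 genes above. Counts of 1 came without the Input library of animal 208 and without the Positive library of animal 207, and the cause was not tested. Over left-out libraries Colec12 ran from -0.56 to 0.13 and Itga2b from -0.39 to 0.025, and neither was called in any of these.

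With the animal as replicate block, 7567 genes differed against 7053, of which 7025 were shared, 7 of 7 genes were higher and 3 were above the microglial level. The log2 fold change was then 4.16 for Mrc1, 3.96 for Cd163, 4.47 for F13a1, 3.77 for Stab1, 4.13 for Lyve1, 4.41 for Pf4 and 3.14 for Ms4a7. Among genes named, the block changed the calls of Nr4a1 (-0.26) and Rgs5 (0.38) alone. The counts of genes that differed were 5539 to 7260 with single libraries left out. Counts of 4 to 54 reads in Input of Cd163, F13a1, Lyve1, Pf4 and Ms4a7 limit the precision of their folds.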

Other observations

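MHC class II genes, which present antigen and are carried by a subset of border macrophages, were higher in Positive in 6 of the 6 tested of 7. Cd74, the invariant chain, went from 142 ± 37.9 scaled reads (SD, n = 3) to 1739 ± 439, an increase of 3.61 ± 0.21 on the log2 scale (SE, edgeR adjusted p = 1.72e-08). H2-Ab1 was at 3.36 ± 0.23, H2-Eb1 at 3.16 ± 0.25 and H2-DMa at 1.84 ± 0.15. The list had a median of 3.41. Its median excess in the Positive library of animal 207 was 0.45, near the 0.41 of the microglia list and below the 0.97 of the 7 border macrophage markers, a difference that was not tested.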
